A study of Mus musculus with 4 samples.

Results

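The 10 genes described here encode leukocyte integrin subunits, namely the alpha subunits Itga4, Itga5, Itga6, Itgal, Itgav and Itgax and the beta subunits Itgb1, Itgb2, Itgb3 and Itgb7. They were chosen by gene symbol, with earlier results of these data known, and all 10 were found among the 23275 entries of the table. All 10 were also among the 12683 entries that the authors tested, so none was lost to low values. The 10 genes are spread over 6 chromosomes. Itga4, Itga6 and Itgav lie on chromosome 2, Itgal and Itgax on chromosome 7, Itga5 and Itgb7 on chromosome 15, and Itgb1, Itgb2 and Itgb3 on chromosomes 8, 10 and 11.

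Integrins are cell surface receptors in which 1 alpha and 1 beta subunit pair to form each receptor. They hold blood cells to other cells and to extracellular matrix, and they switch from a resting to an active shape when proteins bind the short tails of the subunits inside the cell. In bone marrow, early B cells use the integrin of Itga4 and Itgb1, known as VLA-4, to bind VCAM1 and fibronectin on stromal cells. The integrin of Itgal and Itgb2, known as LFA-1, binds ICAM proteins on other cells.

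The sorted cells were B220+CD43+, came from the bone marrow of C57BL/6 mice aged 8 weeks, and gave polyadenylated RNA for sequencing. The Hdac3-deleted group was Hdac3F/-Mb1cre+/-, with a conditional and a null allele of the histone deacetylase 3 gene, and the wild-type group was Hdac3+/+Mb1cre+/-. Each group had 2 libraries, and each library pooled cells of 2 mice. Both groups carried Mb1cre, a recombinase placed in the Cd79a gene, which is known to act in B-lineage cells and not in the other cell types that such a sort can hold. Every level is in FPKM, the authors' fragment count scaled to transcript length and sequencing depth, with 1 value per genotype that combines its 2 libraries. No spread between libraries and no depth per library can therefore be given, and p-values and q-values are those of the authors' deposited table. Nothing says whether the pools were prepared separately, so the p-values measure only the spread between these libraries.

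Hdac3 itself was 22.0 FPKM in Hdac3-deleted cells and 46.8 FPKM in wild-type cells (q = 0.0016 in the authors' deposited table). Every cell of the Hdac3-deleted mice has the null allele, so this level alone does not show how far Mb1cre deleted the conditional allele. The 13 genes listed as B-lineage markers were abundant in both genotypes, from 107 to 834 FPKM in Hdac3-deleted cells and from 77.4 to 509 FPKM in wild-type cells. Ptprc, Spn and Il7r among them are not confined to B cells. Transcripts of other cells were abundant too. Bst2, abundant in plasmacytoid dendritic cells, was 670 FPKM in Hdac3-deleted cells and 578 FPKM in wild-type cells. Nkg7, a gene of cytotoxic lymphocytes, was 185 FPKM in Hdac3-deleted cells and 184 FPKM in wild-type cells. Every integrin value below is therefore that of the whole sorted population, and in such bulk RNA fewer cells of a type and less RNA per cell cannot be told apart.

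Of the 10 integrin genes, 1 fell in Hdac3-deleted cells, 9 did not pass the test and none rose. The gene that fell was Itga6, the alpha subunit of a laminin receptor, at 3.48 FPKM in Hdac3-deleted cells against 7.50 FPKM in wild-type cells. A gene was called changed at a q under 0.05 in the authors' deposited table of Cuffdiff results. By that rule 6.95% of all tested genes changed, 2.81% being higher and 4.14% lower in Hdac3-deleted cells. A count of 1 in 10 is near that background and is not a result about the integrins as a list. At an unadjusted p under 0.05 in the authors' deposited table, 1 of the 10 was higher, Itgax, and 1 lower, Itga6. Among all 12683 tested genes 1035 were higher and 1135 lower at that p, so these counts are not a result about the list.

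The integrins that early B cells and other marrow leukocytes are known for were the most abundant. Itga4 was 126 FPKM in Hdac3-deleted cells and 106 FPKM in wild-type cells, which is above 94.7% of tested genes in the Hdac3-deleted and 93.3% in the wild-type cells. Itgb2, the shared beta subunit of leukocyte integrins, followed at 105 FPKM in Hdac3-deleted cells and 97.6 FPKM in wild-type cells. These 2 genes led the list in both genotypes. Itgal, Itgb1, Itgb7 and Itgax came next, and the 6 genes together lay between 33.2 and 126 FPKM in Hdac3-deleted cells and between 25.3 and 106 FPKM in wild-type cells. The other 4, Itgb3, Itgav, Itga5 and Itga6, lay between 3.48 and 8.47 FPKM in Hdac3-deleted cells and between 5.003 and 7.69 FPKM in wild-type cells. The median tested gene had 13.0 FPKM in Hdac3-deleted cells and 12.8 FPKM in wild-type cells. The 6 more abundant genes were thus above the median gene and the other 4 below it in both genotypes, and with no spread between libraries the order of near neighbours was not tested.

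**Figure D1:**
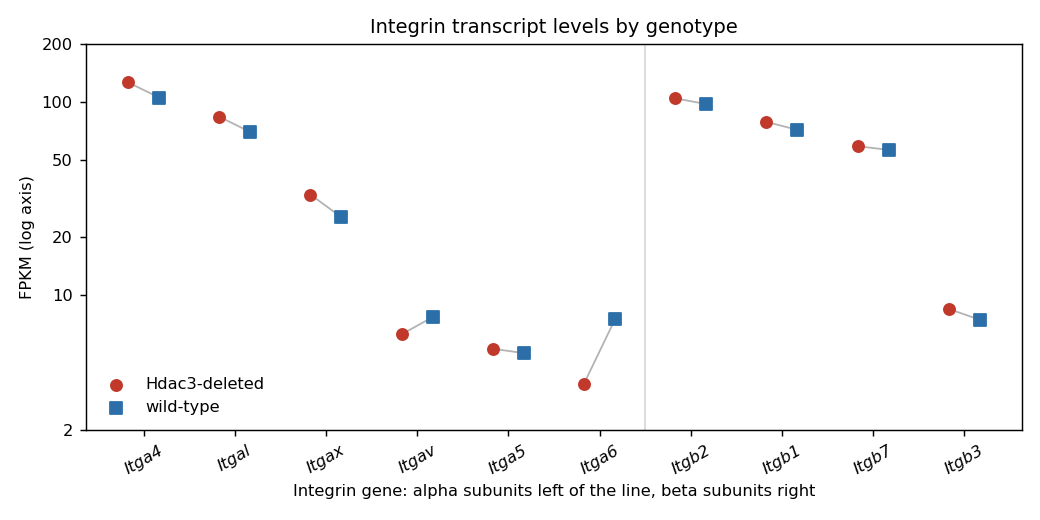
Level of each integrin gene in FPKM on a log axis, with the authors' 1 value per genotype (circles, Hdac3-deleted; squares, wild-type) and no error bar because library values are combined. Itga6 has the widest gap, at 3.48 FPKM in Hdac3-deleted and 7.50 FPKM in wild-type cells, while the 6 abundant genes lie at 25.3 FPKM or above in both genotypes.

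In mm10, Itga6 spans chromosome 2 between bases 71787083 and 71856758, and no exon of another annotated gene overlaps its exons. Its level in Hdac3-deleted cells was 46.4% of the wild-type level, a log2 fold change of -1.11 (q = 0.0016 in the authors' deposited table). With a standard error obtained by dividing the log2 fold change by the deposited test statistic, its approximate 95% interval ran from -1.67 to -0.54. Among 396 genes that share the smallest deposited p-value, Itga6 cannot be ranked. Itga6 was above 23.7% of tested genes in Hdac3-deleted cells and 36.4% in wild-type cells, so its level was low in both.

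Itgb1, a beta partner of Itga6 and the beta subunit common to the receptors for fibronectin, laminin and VCAM1, was 78.9 FPKM in Hdac3-deleted cells and 71.8 FPKM in wild-type cells. Its log2 fold change was 0.14, with an approximate interval from -0.34 to 0.61 (q = 0.84 in the authors' deposited table). The level of Itga6 per unit of Itgb1 was thus 0.0441 in Hdac3-deleted cells and 0.104 in wild-type cells. Itgb4, the other known partner of Itga6, was 0.786 FPKM in Hdac3-deleted cells and 0.423 FPKM in wild-type cells and did not pass the test.

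Itga4, with Itgb1 the VLA-4 receptor and with Itgb7 a receptor for the gut address protein MAdCAM1, had a log2 fold change of 0.26. Its approximate interval ran from -0.31 to 0.83 (q = 0.686 in the authors' deposited table). The entry shares its locus, on chromosome 2 from 79255426 to 79428988, with Cerkl, whose exons overlap on the opposite strand. Cerkl was 7.30 FPKM in Hdac3-deleted cells and 7.89 FPKM in wild-type cells, so how fragments were split between the overlapping genes is uncertain. Itgb7 was 59.1 FPKM in Hdac3-deleted cells and 56.5 FPKM in wild-type cells, a log2 fold change of 0.06 with an interval from -0.48 to 0.61 (q = 0.939 in the authors' deposited table). Itga4 was higher than either beta partner in both genotypes, at 1.60 times Itgb1 in Hdac3-deleted cells and 1.47 times in wild-type cells. Among the 12 alpha subunits that can pair with Itgb1, Itga4 made up 84.9% of the summed FPKM in Hdac3-deleted cells and 79.7% in wild-type cells. Itga6 made up 2.34% in Hdac3-deleted cells and 5.66% in wild-type cells. These shares come from 1 value per genotype and were not tested.

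Itga5, the alpha subunit of the classical fibronectin receptor, was low in both genotypes. It was 5.27 FPKM in Hdac3-deleted cells and 5.003 FPKM in wild-type cells, with a log2 fold change of 0.08 and an approximate interval from -0.57 to 0.72 (q = 0.932 in the authors' deposited table). Itgav, which with Itgb3 forms the vitronectin receptor, was 6.27 FPKM in Hdac3-deleted cells and 7.69 FPKM in wild-type cells. Besides Itga6 it was the only member with a negative value, a log2 fold change of -0.30 with an interval from -0.75 to 0.16 (q = 0.499 in the authors' deposited table). Its exons overlap those of Gm13684 on the opposite strand. Itgb3 was 8.47 FPKM in Hdac3-deleted cells and 7.46 FPKM in wild-type cells, a log2 fold change of 0.18 with an interval from -0.36 to 0.73 (q = 0.755 in the authors' deposited table). The ratio of Itgav to Itgb3 was 0.74 in Hdac3-deleted cells and 1.03 in wild-type cells. Itgb3 is also the beta subunit of the platelet receptor. Itga2b, its platelet partner, was 0.193 FPKM in Hdac3-deleted cells and 0.325 FPKM in wild-type cells and was not tested by the authors. Megakaryocyte and platelet markers were near 0 throughout, with none of 10 above 0.403 FPKM and 2 of them, Gp6 and Treml1, at 0 in both genotypes. The part of these cells in the value of Itgb3 was not tested.

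The beta 2 family, which leukocytes alone are known to make, was abundant and none of its 3 members in the list passed the test. Itgal was 84.0 FPKM in Hdac3-deleted cells and 69.9 FPKM in wild-type cells, a log2 fold change of 0.27 with an approximate interval from -0.32 to 0.85 (q = 0.6 in the authors' deposited table). Itgb2 had a log2 fold change of 0.10 with an interval from -0.47 to 0.67 (q = 0.899 in the authors' deposited table). Itgax, which encodes CD11c, a surface marker of dendritic cells also found on natural killer cells, was 33.2 FPKM in Hdac3-deleted cells and 25.3 FPKM in wild-type cells. Its log2 fold change of 0.39, with an interval from -0.17 to 0.95, was the highest of the 10 and had the smallest q of the 9 uncalled genes (q = 0.281, p = 0.0468 in the authors' deposited table). The 11 plasmacytoid dendritic cell markers had a median log2 fold change of 0.35 in the same samples, and all 11 were positive without one passing the test, although 2 had an unadjusted p under 0.05. Siglech, a surface receptor of these cells, was 590 FPKM in Hdac3-deleted cells and 420 FPKM in wild-type cells. The summed level of the list was 2814 FPKM in Hdac3-deleted cells and 2244 FPKM in wild-type cells. Of 6 conventional dendritic cell markers 4 were tested, all positive. Cd209a alone passed the test, beside 2.81% higher among all tested genes. It rose 1.67-fold to 70.1 FPKM, against 42.0 FPKM in wild-type cells. Clec10a was 63.1 FPKM in Hdac3-deleted cells and 49.7 FPKM in wild-type cells, and Clec9a 30.1 FPKM in Hdac3-deleted cells and 22.5 FPKM in wild-type cells. Batf3, Xcr1 and Zbtb46, the rest of this list, were under 1 FPKM in both genotypes, and Xcr1 and Zbtb46 were not tested. The part of either cell type in the value of Itgax was not tested.

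**Figure D2:**
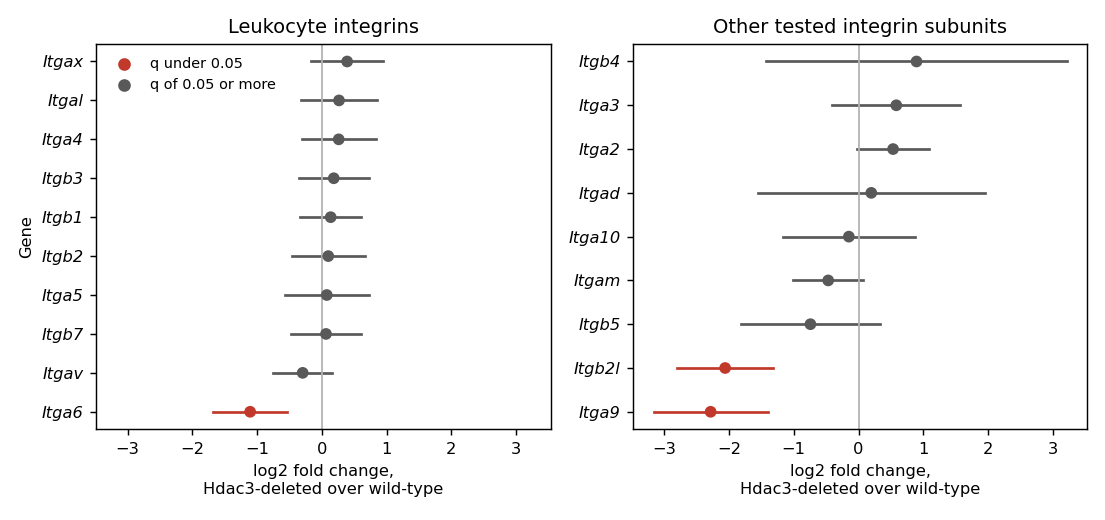
Log2 fold change of Hdac3-deleted over wild-type cells (horizontal axis) for the 10 leukocyte integrins and for the 9 other integrin subunits that the authors tested, with the approximate 95% interval as a line and genes with q under 0.05 in red. Itga6 is the 1 leukocyte integrin whose interval does not reach 0, and Itga9 and Itgb2l lie lower still at -2.28 and -2.06.

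For the 9 integrins that missed the threshold the approximate intervals give a rough range of change in the whole sorted population. They rest on 2 libraries of pooled mice per genotype and a normal quantile, so the true range may be wider. The data set no bound for any 1 cell type within it, and a missed threshold does not show that levels were equal. The log2 fold changes of these 9 lay between -0.30 and 0.39, and 8 of 9 were positive. All 9 approximate intervals spanned 0 and stayed within a 2-fold change either way, the lowest end being -0.75 for Itgav and the highest 0.95 for Itgax. The authors' p-values were smaller than a normal approximation gives in all 10 members, so these intervals are wider than the authors' own test implies. That does not show that they cover the spread between mice. The median log2 fold change was 0.12 over the 10 integrins and 0.03 over all tested genes with a value above 0 in both genotypes.

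**Figure D3:**
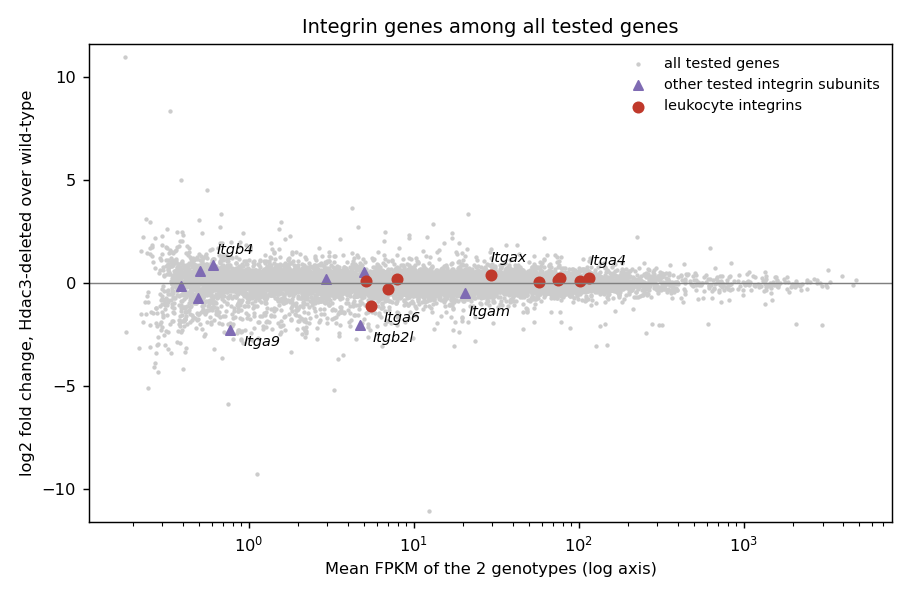
Mean FPKM of the 2 genotypes on a log axis against the log2 fold change of Hdac3-deleted over wild-type cells for 12643 tested genes with values above 0 in both (grey), the 10 leukocyte integrins (red) and the 9 other tested integrin subunits (violet triangles). The red points run near 0 except Itga6 at -1.11, and Itga9 and Itgb2l lie below it.

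A further 17 integrin subunits were in the table, of which the authors tested 9, and 2 of these fell. That is 22.2% of the 9, beside 4.14% lower among all tested genes, a difference that was not tested. Itga9, whose receptor with Itgb1 binds tenascin and VCAM1, was 0.264 FPKM in Hdac3-deleted cells and 1.29 FPKM in wild-type cells, a log2 fold change of -2.28 (q = 0.0016 in the authors' deposited table). With a pseudocount of 1 FPKM that value was -0.86. Itgb2l, a relative of Itgb2 known from mouse neutrophils, was 1.83 FPKM in Hdac3-deleted cells and 7.61 FPKM in wild-type cells, a log2 fold change of -2.06 (q = 0.0016 in the authors' deposited table). Itgam, which encodes the myeloid marker CD11b, was 17.1 FPKM in Hdac3-deleted cells and 23.7 FPKM in wild-type cells, and its log2 fold change of -0.47 did not pass (q = 0.137 in the authors' deposited table). Among the 4 alpha partners of Itgb2, Itgam was thus 12.4% of the summed FPKM in Hdac3-deleted cells and 19.5% in wild-type cells, and Itgax 24.1% in Hdac3-deleted cells and 20.8% in wild-type cells. Itga2, a collagen receptor subunit, was 5.94 FPKM in Hdac3-deleted cells and 4.11 FPKM in wild-type cells and missed the threshold as well (q = 0.148 in the authors' deposited table). Itgad, at 3.16 FPKM in Hdac3-deleted cells and 2.76 FPKM in wild-type cells, shares its locus with the far more abundant Cox6a2. Itga3, Itga10, Itgb4 and Itgb5 were under 1 FPKM in both genotypes, and so were the 8 subunits left untested.

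Beside the falls of Itga6, Itga9 and Itgb2l, many markers of other cell types fell in these cells. Among all tested genes 4.14% were lower. Of 13 tested neutrophil and monocyte markers 11 fell, with a median log2 fold change of -1.97, and their summed level was 2799 FPKM in Hdac3-deleted cells and 10930 FPKM in wild-type cells. The highest of the list, the calcium-binding protein genes S100a8 and S100a9, were 1172 and 831 FPKM in Hdac3-deleted cells and 4815 and 3333 FPKM in wild-type cells. Ngp, a neutrophil granule gene, was 247 FPKM in Hdac3-deleted cells and 968 FPKM in wild-type cells. Of 8 basophil and mast cell markers 4 fell, all 8 were negative with a median of -2.12, and their summed level was 6.39 FPKM in Hdac3-deleted cells and 27.8 FPKM in wild-type cells. Prss34 and Mcpt8, proteases of basophils, were 1.85 and 1.45 FPKM in Hdac3-deleted cells and 9.03 and 9.05 FPKM in wild-type cells, and Hdc, the enzyme that makes histamine, was 1.56 FPKM in Hdac3-deleted cells and 5.04 FPKM in wild-type cells. None of these markers was at 0 in either genotype. Of 6 plasma cell markers 3 fell, 1 of which, Igj, was still called with the test statistic treated as normal, at 93.9 FPKM in Hdac3-deleted cells and 239 FPKM in wild-type cells. Xbp1, at 132 FPKM in Hdac3-deleted cells and 113 FPKM in wild-type cells, was not called, nor was Irf4 at 111 FPKM in Hdac3-deleted cells and 85.0 FPKM in wild-type cells. The part of any of these cell types in the fall of Itga6 was not tested.

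All 13 genes listed as B-lineage markers were positive, Ptprc, Spn and Il7r included, the median being 0.49 on the log2 scale. Of the 13, 6 rose, beside 2.81% higher among all tested genes. Rag1, which encodes a recombinase subunit of antibody gene assembly, had the largest value, 2.25, at 372 FPKM in Hdac3-deleted cells and 77.8 FPKM in wild-type cells (q = 0.0016 in the authors' deposited table). Igll1, the most abundant, was 834 FPKM in Hdac3-deleted cells and 509 FPKM in wild-type cells, and Dntt, which adds bases at the joints of antibody genes, was 569 FPKM in Hdac3-deleted cells and 298 FPKM in wild-type cells. When the deposited test statistic was treated as normal, Rag1 was still called and the other 5 were not, at adjusted p of 0.135 or more. The abundant integrins Itga4 and Itgb1 had values of 0.26 and 0.14 beside the B-lineage median of 0.49, a comparison for which no test was run.

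Of 11 T, NK and innate lymphoid markers 1, Eomes, rose, beside 2.81% higher among all tested genes. That call ended with the test statistic treated as normal, and the median of the list was 0.18. Klrd1 was 165 FPKM in Hdac3-deleted cells and 139 FPKM in wild-type cells. Gzma was 153 FPKM in Hdac3-deleted cells and 147 FPKM in wild-type cells. Of 5 tested macrophage markers 1, Emr1, fell, beside 4.14% lower among all tested genes. Emr1 was 0.573 FPKM in Hdac3-deleted cells and 1.76 FPKM in wild-type cells. Cd163 and C1qb were 3.07 FPKM or less in both genotypes. Of 9 erythroid markers 5 were matched by symbol, and none of these 5 exceeded 0.562 FPKM. The other 4, all globin genes, were not analysed here. The level of erythroid RNA as a whole is thus not known. The 3 tested endothelial markers did not pass, with Cdh5 at 18.7 FPKM in Hdac3-deleted cells and 16.1 FPKM in wild-type cells, Kdr at 6.33 FPKM in Hdac3-deleted cells and 5.30 FPKM in wild-type cells, and Emcn at 0.0437 FPKM in Hdac3-deleted cells and 0.392 FPKM in wild-type cells.

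Integrins are activated from inside the cell by the small GTPase Rap1, and genes of this arm included the largest change in the pathway. Of 17 tested genes 2 rose and 1 fell, or 17.6%, beside 6.95% changed among all tested genes. No test of this or the other lists as sets was run. The median log2 fold change was 0.17. Rapgef4, which encodes the cAMP-regulated Rap1 exchange factor Epac2, rose 6.71-fold to 8.01 FPKM in Hdac3-deleted cells, against 1.19 FPKM in wild-type cells (q = 0.0016 in the authors' deposited table). Rasgrp2, which encodes the calcium-regulated exchange factor CalDAG-GEFI, rose 1.69-fold to 150 FPKM, against 88.4 FPKM in wild-type cells (q = 0.0041 in the authors' deposited table). Sipa1l2, whose family of GTPase activators turns Rap1 off, fell to 2.21 FPKM, against 3.58 FPKM in wild-type cells (q = 0.0318 in the authors' deposited table). Rap1a and Rap1b themselves were 193 and 152 FPKM in Hdac3-deleted cells and 198 and 180 FPKM in wild-type cells and did not pass the test. The exons of Rapgef4 and Rasgrp2 overlap those of opposite-strand genes, and nothing in these sources says whether strand was used in counting. With the deposited Cuffdiff statistic treated as normal, Rapgef4 was still called, while Rasgrp2 (q = 0.114) and Sipa1l2 (q = 0.414) were not.

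Proteins that bind integrin tails or join them to adaptors showed 1 change among 15 tested genes. That is 6.67%, near the 6.95% changed among all tested genes, and is not a result about the list. Fyb, the adaptor ADAP that links immune receptors to integrins, rose 1.54-fold to 115 FPKM, against 74.3 FPKM in wild-type cells (q = 0.0391 in the authors' deposited table). That call ended with the deposited Cuffdiff statistic treated as normal (q = 0.484), and exons of Fyb overlap those of a same-strand and an opposite-strand gene. Fermt3, which encodes kindlin-3, the blood-cell activator of beta subunits, was 87.7 FPKM in Hdac3-deleted cells and 75.0 FPKM in wild-type cells and did not pass. Fyb was the most abundant gene of this list on average and Fermt3 the next, and the median log2 fold change was 0.22. In the signalling complex that assembles on engaged integrins, 1 of 18 tested genes rose, Parvb, at 9.03 FPKM in Hdac3-deleted cells and 3.20 FPKM in wild-type cells (q = 0.0016 in the authors' deposited table). This 1 gene is 5.56% of the tested genes of that list, again near the background of 6.95%. Parvb encodes beta-parvin, which binds integrin-linked kinase. The cytoskeletal proteins Zyx and Vasp were the most abundant of that list, with Zyx at 102 FPKM in Hdac3-deleted cells and 70.8 FPKM in wild-type cells and Vasp at 79.2 FPKM in Hdac3-deleted cells and 72.0 FPKM in wild-type cells, and neither passed. The list's median was 0.15.

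Membrane proteins that associate with integrins had 1 lower gene of 13, or 7.69%, near the 6.95% changed among all tested genes. Cd63, a tetraspanin of granules and lysosomes, fell to 2.14 FPKM in Hdac3-deleted cells, against 8.41 FPKM in wild-type cells (q = 0.0016 in the authors' deposited table). The leukocyte tetraspanins Cd37 and Cd53, the most abundant of the list, were 333 and 302 FPKM in Hdac3-deleted cells and 289 and 221 FPKM in wild-type cells and did not pass. The median log2 fold change was 0.08. Granule genes of neutrophils and basophils fell in the same samples as Cd63, with the summed levels given above, and their part in it was not tested.

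Of 12 tested integrin ligand genes 4 fell and 1 rose, and each of these 5 was under 10 FPKM in both genotypes. They are 41.7% of the 12, beside 6.95% changed among all tested genes, a difference that was not tested. Fn1, which encodes fibronectin, the ligand of the receptors with Itga4 and Itga5, fell to 2.69 FPKM in Hdac3-deleted cells, against 5.90 FPKM in wild-type cells (q = 0.0016 in the authors' deposited table). Thbs1, encoding thrombospondin 1, was 0.692 FPKM in Hdac3-deleted cells and 1.51 FPKM in wild-type cells (q = 0.0041 in the authors' deposited table). Spp1, encoding osteopontin, fell to 4.96 FPKM, against 8.84 FPKM in wild-type cells (q = 0.0266 in the authors' deposited table). Of the basement membrane genes, Nid1 fell to 0.152 FPKM in Hdac3-deleted cells, against 0.546 FPKM in wild-type cells, and Lamb2 rose to 0.852 FPKM in Hdac3-deleted cells, against 0.383 FPKM in wild-type cells, all under 1 FPKM. The most abundant ligands, which were above the median tested gene, were those of LFA-1, Icam2 at 36.1 FPKM in Hdac3-deleted cells and 47.3 FPKM in wild-type cells and Icam1 at 28.0 FPKM in Hdac3-deleted cells and 19.5 FPKM in wild-type cells, and neither passed. The other 16 ligand genes were not tested by the authors, and the median over the tested ones was -0.45, beside 0.03 over all tested genes. With genes of at least 1 FPKM in 1 genotype alone, 3 of 8 ligands were lower and none was higher. With the deposited Cuffdiff statistic treated as normal, Fn1 and Nid1 were still called, while Thbs1 (q = 0.113), Spp1 (q = 0.342) and Lamb2 (q = 0.244) were not. Exons of Fn1, Thbs1 and Nid1 overlap those of an opposite-strand gene and exons of Spp1 those of a same-strand gene, so how fragments were split is uncertain. The neutrophil, monocyte, basophil and mast cell markers had lower summed levels, given above, in the samples in which Fn1, Thbs1, Spp1 and Nid1 fell. The part of those cell types in these falls was not tested.

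**Figure D4:**
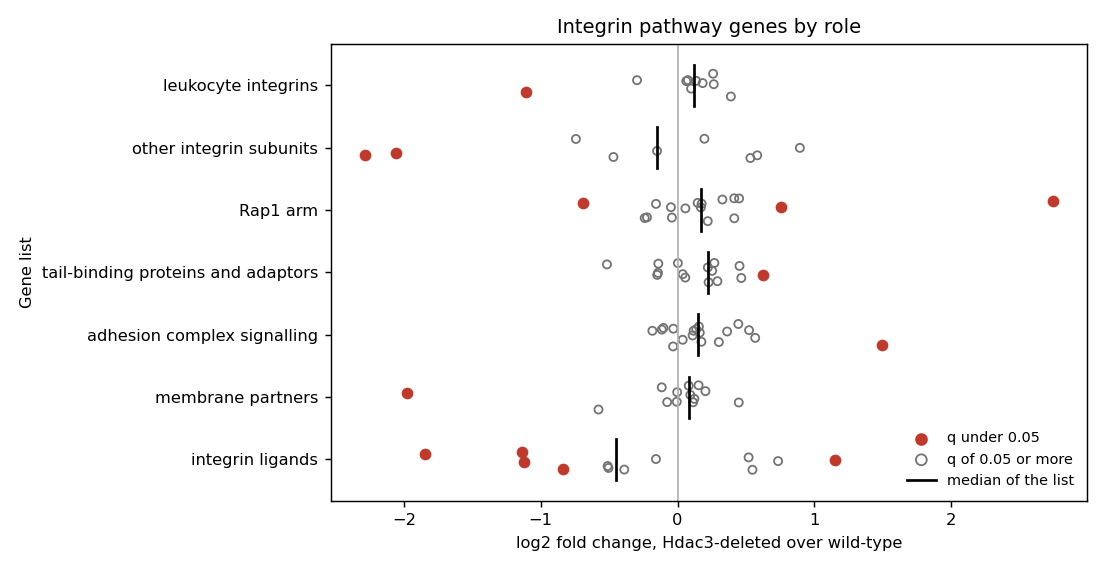
Log2 fold change of Hdac3-deleted over wild-type cells (horizontal axis) for each tested gene of the 10 leukocyte integrins and 6 lists of related genes, with genes of q under 0.05 filled red and the list median as a black bar; vertical scatter within a row only separates points. Rapgef4 at 2.75 is the point farthest right, and the medians lie between -0.45 and 0.22.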

How the data were processed

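The 4 libraries, 2 of each genotype, were read from a table in which the authors had already combined them. Per the submitters' processing notes, Trimmomatic 0.32, TopHat2 2.0.11 and Cuffdiff 2.1.1 were used with mm10. How they were set, which annotation was used and how libraries were scaled is not stated there. Per the labels' protocols, polyadenylated RNA was made into libraries with an Illumina TruSeq RNA kit after Trizol extraction. The deposited values are, per the file headers, FPKM per gene and genotype. The deposited test statistic is a score. The deposited p-value and q-value come from the authors' Cuffdiff test, and recomputing a Benjamini-Hochberg adjustment over all tested genes gave that q-value within 5.27e-07. The depth per library is unknown.

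Log2 fold changes were computed from FPKM with no pseudocount, Hdac3-deleted over wild-type. Approximate 95% intervals used a normal quantile of 1.96. Entries were matched by symbol, positions were shifted to count from 1, and overlapping exons were read from a GENCODE annotation of the same build. The call at q under 0.05, the calculation of q and the intervals were tested on simulated data. Members, gene lists and tests were chosen with earlier results of these data known. Named genes were all 10 members and all tested other subunits. For each related list they were up to 6 changed genes and the 2 most abundant, and for each marker list genes out of its 3 most abundant. Rag1, Eomes, Cerkl, Gm13684, Cox6a2, Itga2b, Gp6, Treml1 and the genes near Itga6 were named after their values were seen. So were Batf3, Xcr1, Zbtb46, Ptprc, Spn, Il7r, Cd68 and Elane. Ly6g and 4 globin genes of the marker lists are not analysed here. Alternatives were other q thresholds, a minimum fold of 1.5, a minimum of 1 FPKM, pseudocounts of 1 and 0.1 FPKM, centring on the median gene, a normal approximation to the test statistic with its own Benjamini-Hochberg q over all tested genes, and entries with a locus of their own. The software was numpy 2.4.6 and pandas 2.3.3 in Python 3.11.15, with statistics from statsmodels 0.14.6 and scipy 1.17.1 and plots from matplotlib 3.10.9.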

Additional observations from a re-analysis of the deposited data

How the results depend on the processing

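Itga6 was the 1 integrin called under each of the 6 other ways of calling genes, with an adjusted p from 0.00151 to 0.00551, the last from treating the deposited test statistic as normal. No member changed sign with a pseudocount of 1 or 0.1 FPKM or with centring on the median gene, and the value of Itga6 was then -0.92, -1.09 and -1.13. Over all tested genes the calls numbered 534 at a q under 0.01 and 471 with the normal approximation, against 881. With the normal approximation the 6 related lists together held 7 changed genes, against 13, the Rap1 list held 1 (Rapgef4), against 3, the ligands 2 (Fn1 and Nid1), against 5, and the tail-binding list 0 (Fyb was lost), with 1 of its genes at an unadjusted p under 0.05. At a q under 0.01 in the authors' Cuffdiff test the ligands held 3 and the tail-binding list 0, although 4 of its genes had an unadjusted p under 0.05. With at least 1 FPKM the ligands held 3. At a q under 0.1 the adhesion complex list held 3, against 1, and the membrane partners 2, against 1. The cause of these differences beyond their construction was not tested. No paired analysis was possible because the values used here combine the 2 libraries of a genotype, and for the same reason leaving out each replicate was not run. The depth is unknown, so what it limits cannot be given.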

Other observations

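Itga6, which fell, and Rapgef4, 1 of the 2 Rap1 exchange factor genes that rose, lie close together on chromosome 2. Rapgef4 starts 124 kb beyond the end of Itga6, from position 71981215 to 72257474 of mm10, and had a log2 fold change of 2.75, beside -1.11 for Itga6. Pdk1, a kinase gene of glucose metabolism between them, was 9.09 FPKM in Hdac3-deleted cells and 11.6 FPKM in wild-type cells and did not pass the test (q = 0.381 in the authors' deposited table). Of the 3 entries within 200 kb of Itga6 the last, Gm1631, was listed at 0 in both genotypes.

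The alpha subunits Itgam, Itgax and Itgad of the beta 2 family are neighbours on chromosome 7, with values that differed in sign. Itgam lies 11.1 kb from Itgax, and Itgax 23.3 kb from Itgad. Their log2 fold changes were -0.47 for Itgam, 0.39 for Itgax and 0.20 for Itgad. None of these passed the test, so no direction is established, and the difference between them was not tested. The entry of Itgad shares its locus with the far more abundant Cox6a2.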
